A study of Canis lupus familiaris with 124 samples.

Results

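In this study of canine prostate and bladder carcinoma, 12 of 32183 genes had a higher RNA level in every cell line than in every tumor tissue by a fixed margin. The level was the CPM, in which the counts of a gene are scaled to the total counts of the sample. The lowest of the 8 cell lines had to reach 5 CPM and at least 1.5 times the highest of the 9 tissues. The rule also left out 5 genes by name, whether or not they met the margin. These values chose the genes, so the contrast of cell lines with tissues is described below without a test. The 12 genes are 0.0373% of all genes, a share that the choice itself fixes. The opposite rule, with the lowest tissue at 5 CPM or more and at least 1.5 times the highest cell line, was met by 78 genes.

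RNA of established canine carcinoma cell lines and of frozen tumors was sequenced, with lines and tumors partly from the same dogs, to set the lines against their tissue of origin. PAC is prostate adenocarcinoma and TCC is transitional cell carcinoma. The PAC lines were Adcarc0846 (dog 2, aged 6 years), Adcarc1508 (dog 3, 11 years) and Adcarc1511.1 (dog 4, 6 years), and Metadcarc1511.2 and Metadcarc1511.3 came from lymph node metastases of dog 4. The TCC lines were TCC0840 (dog 5, 10 years), TCC1506 (dog 7, 10 years) and TCC1509 (dog 6, 9 years). TCC1506 was established from a bladder tumor and the other lines from tumors of the prostate or their metastases. The PAC tissues were the primary tumor P2 (dog 2) and the metastases Ln4.2 and Ln4.3 (dog 4). The TCC tissues were P6.1 from the prostate and its metastasis Ln6.2 (dog 6, 9 years) and the bladder tumors B7 (dog 7, 10 years), B8 (dog 8, 11 years), B9 (dog 9, 8 years) and B10 (dog 10, 8 years). The labels give no drug treatment. All lines grew in the same serum-containing medium beyond passage 60, with passages between 68 and 448 here, so each line stands for long-cultured tumor cells without the other cells of a tumor. The 22 libraries of the lines held 15355798 to 19935282 expected counts each. After pooling, the lines held 33500674 to 55488800 and the tissues, with 1 library each, 11920463 to 18086895. RNA was extracted with one kit from cell pellets and with another from tissues, so kit and kind of sample cannot be told apart.

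A tumor is a mixture of carcinoma cells with leukocytes, fibroblasts and vessels, whereas a carcinoma line consists of proliferating epithelial tumor cells. RNA of genes used by every dividing cell, for instance in spindle assembly, ribosome production or mRNA maturation, commonly takes a larger share of the RNA of a culture than of a tissue. In bulk RNA, fewer cells of a type and less RNA per cell cannot be told apart.

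None of the 12 genes could be named. The counts are listed by Ensembl identifier, and symbols were found for 1120 of the 32183 identifiers, all from the gene lists and tables published with the study. Most of the listed symbols come from genes chosen by the study for their correlation with drug resistance in these same lines. Among the other genes with at least 5 CPM in every line, 617 of 8225 had a symbol. The 12 genes are therefore given by their place in the order of the ratio between the lowest line and the highest tissue, with identifiers for some. Positions in the genome were not used here, so reads shared with overlapping genes or near-identical copies could not be assessed.

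The gene in the first place, ENSCAFG00000006965, showed the widest gap. Its lowest level in a line was 79.2 CPM in Adcarc1511.1, the median over the 8 lines was 141 CPM, and the highest was 262 CPM in Adcarc1508. In the tissues it lay between 2.36 CPM in P2 and 24.3 CPM in B7, with a median of 16.7 CPM over the 9. The lowest line thus lay 3.26 times above the highest tissue, and the medians differed 8.46-fold. PAC-derived lines were at both ends of the range of the lines, and no line overlapped with a tissue.

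ENSCAFG00000015235, in the second place, had 66.4 CPM in the lowest line, TCC1509, 103 CPM as the median and 187 CPM in the highest, Metadcarc1511.3. Its tissues lay between 7.29 CPM in Ln6.2 and 25.1 CPM in B7, with a median of 20.3 CPM. The lowest line was 2.64 times the highest tissue. The 3 TCC lines had 66.4, 67.3 and 87.4 CPM, below each of the 5 PAC-derived lines, which started at 97.5 CPM. The tissues did not show this order, as the PAC tissues had 8.15, 19.7 and 19.9 CPM and the TCC tissues 7.29 to 25.1 CPM.

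**Figure D1:**
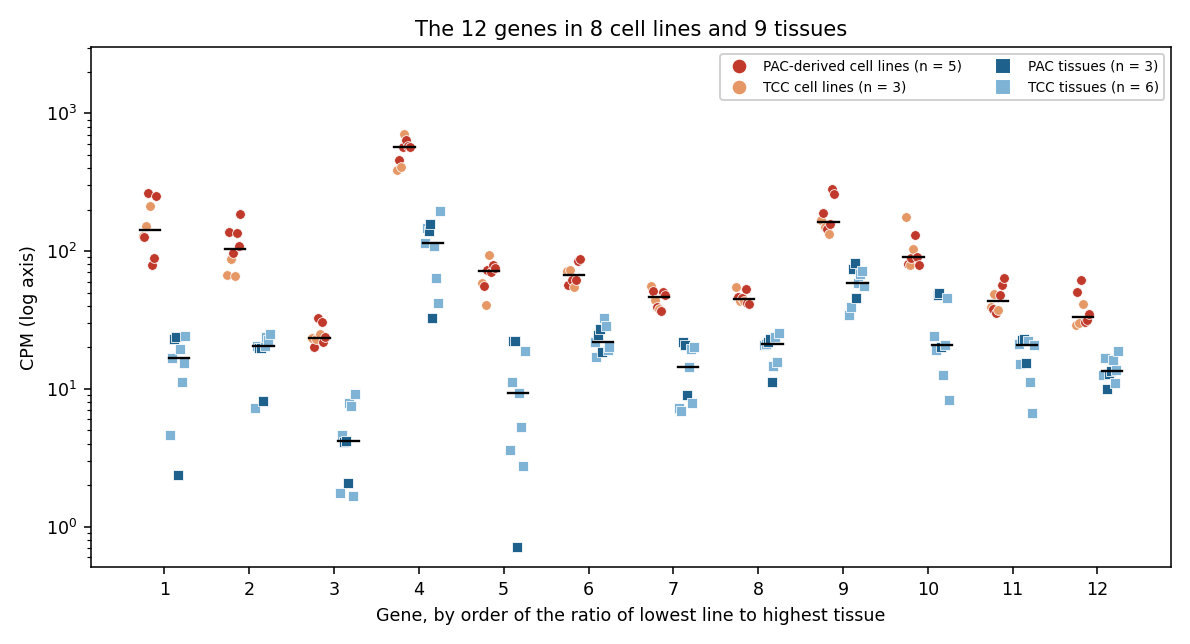
CPM (vertical, log axis) of the 12 genes (horizontal, in order of the ratio) in the 8 cell lines (circles) and 9 tissues (squares), 1 point per pooled line or tissue, with black bars at the medians. In each gene the lowest circle lies at least 1.53 times above the highest square, and the squares of the gene in place 5 reach down to 0.715 CPM.

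For the other 10 genes, the lowest line was between 1.53 and 2.21 times the highest tissue. The gene in place 3 had 20.3 CPM in its lowest line and 9.17 CPM in its highest tissue, and the gene in place 4 had 389 and 196 CPM. The gene in place 5 was the most variable across the tissues, with 22.3 CPM in Ln4.2 and 0.715 CPM in P2, which is 10 counts, while its lines had 40.7 to 94.2 CPM. Just inside the margin, the last gene had 29.0 CPM in its lowest line and 18.9 CPM in its highest tissue, a ratio of 1.53. Just outside it, the next gene, also without a symbol, had 53.1 and 35.4 CPM, a ratio just short of the margin. Of the 8237 genes with at least 5 CPM in every line, 135 (1.64%) were higher in every line than in every tissue, not counting genes left out by name. Of these 135, 123 stayed under the margin.

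The 12 genes differed in level. Per transcript length, the medians over the lines ran from 24.3 to 335 TPM (a level corrected for length) and the medians over the tissues from 4.78 to 82.3 TPM. The ratio of the CPM medians of lines and tissues ran from 2.07 to 8.46, with a median of 3.75. The annotated length had a median of 1947 bases against 2325 in the other 8225 genes at 5 CPM or more in every line. A single annotated transcript was listed for 10 of the 12 genes and for 72.9% of the others.

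The levels of the 12 genes were more even over the lines than over the tissues. The rule used these same values and favored genes with even levels over the lines, so this is a description. Each line also pools 2 or 3 libraries, and each tissue has 1. The highest line was 1.32 to 3.31 times the lowest, with a median of 1.97 over the 12 genes, and the highest tissue was 1.88 to 31.2 times the lowest, with a median of 3.43. The range was wider over the tissues in 11 of the 12 genes. On the log2 scale, the SD had a median of 0.342 over the lines and 0.695 over the tissues, and over all 8237 genes these medians were 0.437 and 0.549. B7 was the highest tissue for 6 of the 12 genes, Ln4.3 for 3, Ln4.2 for 2 and B8 for 1. B7 was also the highest tissue for 27.7% of the 8237 genes. P2 was the lowest tissue for 4 of the 12.

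Leukocyte, stroma and endothelial markers were mostly lower in the lines, though in every list the highest line sum exceeded the lowest tissue sum. The 22 leukocyte markers summed to between 3.82 and 302 CPM in the lines and between 256 and 6121 CPM in the tissues, lowest in B7. Of these, 15, among them SPI1, CSF1R, C1QB and C1QC, had at most 3 counts in at least 6 of the 8 lines. The 24 stroma markers, such as COL1A1 and DCN, summed to 100.3 to 1840 CPM in the lines and 1750 to 111267 CPM in the tissues, highest in P2. The 8 endothelial markers had 5.67 to 93.5 CPM and 80.7 to 1893 CPM. Every tissue exceeded every line for 16 of the 22 leukocyte, 13 of the 24 stroma and 6 of the 8 endothelial markers. The 14 epithelial markers, such as EPCAM and CLDN7, overlapped widely between lines (1045 to 6419 CPM) and tissues (218 to 5020 CPM). Their sum was lowest in P2 among the tissues and in TCC1509 among the lines. The 12 genes summed to 1183 to 1718 CPM in the lines and 179 to 464 CPM in the tissues. The share of the marker lists in the level of the 12 genes was not tested. In B7, the tissue with the lowest sums of leukocyte and endothelial markers, the 12 genes summed to 444 CPM, against 1183 CPM in its own line TCC1506. Their highest sum in a tissue, 464 CPM, was in Ln4.3, the tissue with the highest leukocyte sum. Over the 9 tissues, the mean log2 level of the 12 genes had a Spearman rho of -0.2 with the leukocyte and -0.15 with the stroma sums. It was -0.083 with the endothelial and 0.333 with the epithelial sums.

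**Figure D2:**
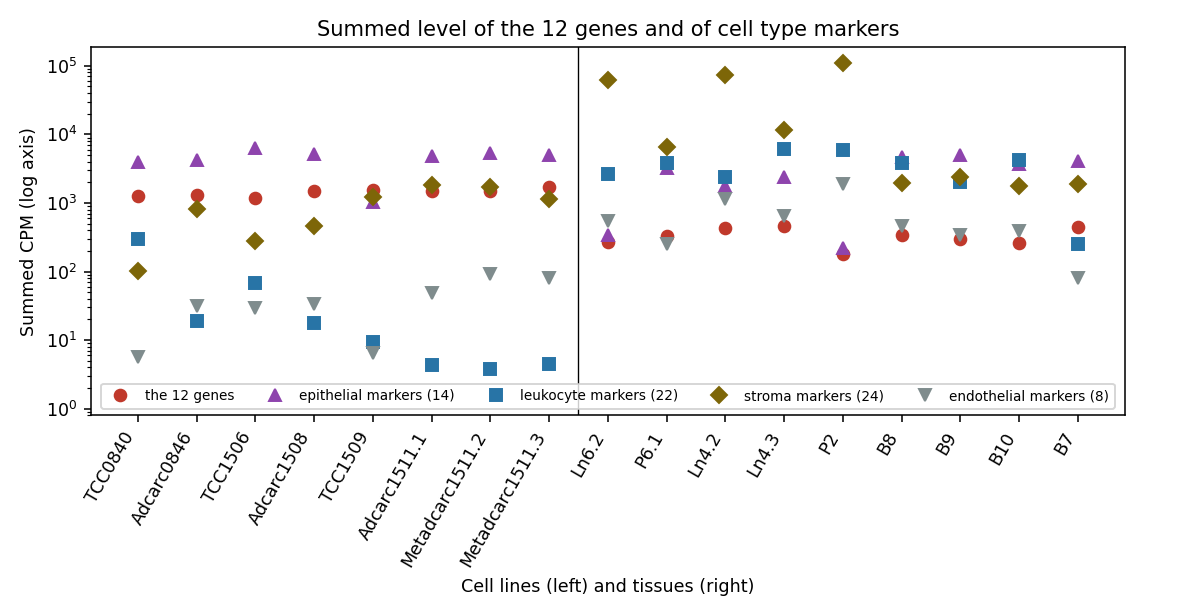
Summed CPM (vertical, log axis) of the 12 genes and of 4 lists of cell type markers in each cell line (left of the vertical line) and tissue (right). The 12 genes (circles) sit at 1183 CPM or above in every line and at 464 CPM or below in every tissue. The leukocyte markers (squares) sit at 302 CPM or below in every line and at 256 CPM or above in every tissue.

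For 5 lines the tumor of origin was sequenced too, so the fold could be read within a dog. In Adcarc0846 against P2, the median fold of the 12 genes was 4.93 (range 2.48 to 78.5), and all 12 were at least 2-fold higher, as were 33.4% of the 8237 genes. In TCC1509 against P6.1 the median was 4.09 (2.07 to 12.8), again with all 12 at 2-fold or more, against 21.3% of all. Metadcarc1511.2 and Metadcarc1511.3 against Ln4.2 and Ln4.3 had medians of 3.49 (1.91 to 5.49) and 3.20 (1.61 to 10.6), with 10 of the 12 at 2-fold or more in each, against 15.5% and 17% of all. TCC1506 against B7 had the lowest median, 2.41 (1.58 to 9.56), with 10 of the 12 at 2-fold or more against 8.83% of all. The median fold of all 8237 genes was 1.41, 1.24, 1.17, 1.22 and 0.947 in the same order of pairs. There is 1 line and 1 tissue in each pair, and since the rule used the same values these folds are a description.

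**Figure D3:**
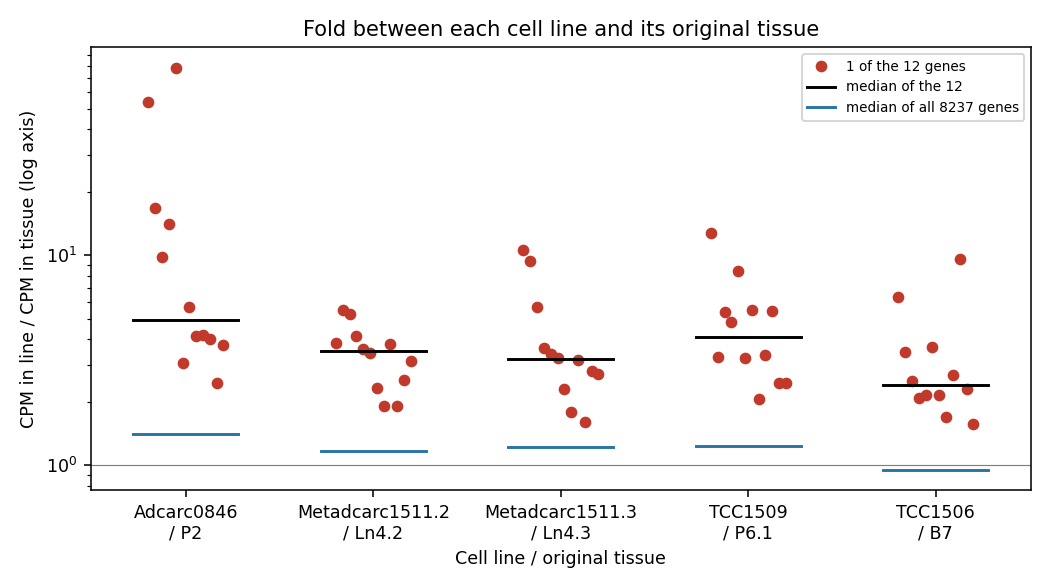
Fold in CPM between a cell line and its tissue of origin (vertical, log axis) for the 12 genes (points), their median (black) and the median of all 8237 genes with at least 5 CPM in every line (blue). The black bar lies highest for Adcarc0846 and P2, at 4.93, and lowest for TCC1506 and B7, at 2.41.

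Whether the genes differed between tumor types was tested within the lines and within the tissues. The rule did not use the tumor types, but it used the lowest line and the highest tissue of the same values and so favored genes with even levels over the lines, and the counts of 0 below are in part fixed by that choice. Between the 5 PAC-derived and the 3 TCC lines, none of the 12 passed (edgeR quasi-likelihood test, adjusted p of 0.05 or less over 12557 genes), and 0.0239% of all genes did. ENSCAFG00000015235 came closest, with a log2 difference of 0.84 (SE 0.28, higher in PAC-derived lines) and an unadjusted p of 0.0144, and was the only one of the 12 with an unadjusted p under 0.05 (adjusted p = 0.499). DESeq2 also called none of the 12. The log2 differences of the 12 lay between -0.34 and 0.84. As 3 of the PAC-derived lines came from 1 dog, the lines are not independent dogs.

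Between the 5 primary TCC tissues and the 3 PAC tissues, none of the 12 passed either, and 5.68% of 13755 genes did. Of the PAC tissues, Ln4.2 and Ln4.3 are lymph node metastases of 1 dog. Tumor type can therefore not be fully told apart from dog and lymph node site. Among the 8235 tested genes with at least 5 CPM in every line, as in the 12, only 1.08% passed. A count of 0 of 12 is therefore no sign that the 12 differ from such genes. None had an unadjusted p under 0.05, and DESeq2 called none. The log2 differences lay between -0.85 (ENSCAFG00000015485) and 0.85 (the gene in place 3, higher in TCC), with standard errors of 0.55 and 0.58.

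The 6 lines with 3 libraries each had 1 library from an earlier passage (68 to 98) and 2 from later ones (75 to 107). Within the lines, 5 of the 12 genes changed between the earliest and the later libraries (edgeR, line as covariate, adjusted p of 0.05 or less), against 25.5% of 10828 genes. Of these 5, 3 rose with passage and 2 fell, where 12.1% of all genes rose and 13.4% fell. DESeq2 also called 5 of the 12, and 3279 of the 10828 genes. Since replicate 1 was the earliest in each line, passage and any other difference between the harvests cannot be told apart. The sums that chose the 12 genes hold 2 later libraries and 1 earliest library of each of these lines. The choice can thus favor genes with high later libraries, so the count of 5 of 12 is not independent of it.

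ENSCAFG00000015485, in place 10, rose most, by 1.74 on the log2 scale (SE 0.27, edgeR adjusted p = 0.00061). Its earliest libraries had 14.7 CPM in Metadcarc1511.3, 21.3 in Metadcarc1511.2, 25.8 in TCC1506, 37.9 in Adcarc1508, 54.5 in TCC1509 and 97.2 in Adcarc1511.1. The later libraries lay between 67.5 and 157 CPM, and in every line both were above the earliest. Only 2 of the 6 earliest libraries exceeded the highest tissue, Ln4.3 with 49.3 CPM, and all later libraries did. The gene thus met the rule through its later libraries.

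ENSCAFG00000007387, in place 9, rose by 0.50 (SE 0.11, edgeR adjusted p = 0.00465), from a median of 113 CPM in the earliest libraries to 173 CPM in the later ones pooled per line, and was higher in 6 of 6 lines. The gene in place 12 rose by 0.39 (SE 0.10, edgeR adjusted p = 0.0114), also in 6 of 6 lines. Without replicate 2 of all lines, both calls were lost, with adjusted p of 0.129 for place 9 (range over all alternatives 0.000174 to 0.129) and 0.111 for place 12 (0.00174 to 0.111). The call of place 12 was also lost without Metadcarc1511.2 (adjusted p = 0.063). Both genes stayed above the highest tissue in every earliest library.

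ENSCAFG00000006965, the gene with the widest gap, fell by 1.22 (SE 0.33, edgeR adjusted p = 0.0137). Its earliest libraries reached 526 CPM in Adcarc1508, 395 in Metadcarc1511.3 and 343 in TCC1509, against 80.0 to 197 CPM in the other 3 lines. After pooling, the later libraries of Adcarc1511.1, Metadcarc1511.2, Adcarc1508, TCC1509 and Metadcarc1511.3 lay below the earliest, and those of TCC1506 above it. The lowest later library, with 30.5 CPM in Metadcarc1511.2, still exceeded the highest tissue (24.3 CPM). Without Adcarc1508 the adjusted p was 0.0771, without Metadcarc1511.2 it was 0.0708, and without replicate 2 of all lines 0.137, within a range of 1.1e-07 to 0.137 over all alternatives. ENSCAFG00000000036, in place 11, fell by 0.44 (SE 0.16, edgeR adjusted p = 0.0482). This call was lost without any of Adcarc1511.1, Metadcarc1511.2, Metadcarc1511.3 or TCC1506, with adjusted p of up to 0.189. It was also lost without replicate 2 of all lines (edgeR adjusted p = 0.135) and without replicate 3 (0.137).

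**Figure D4:**
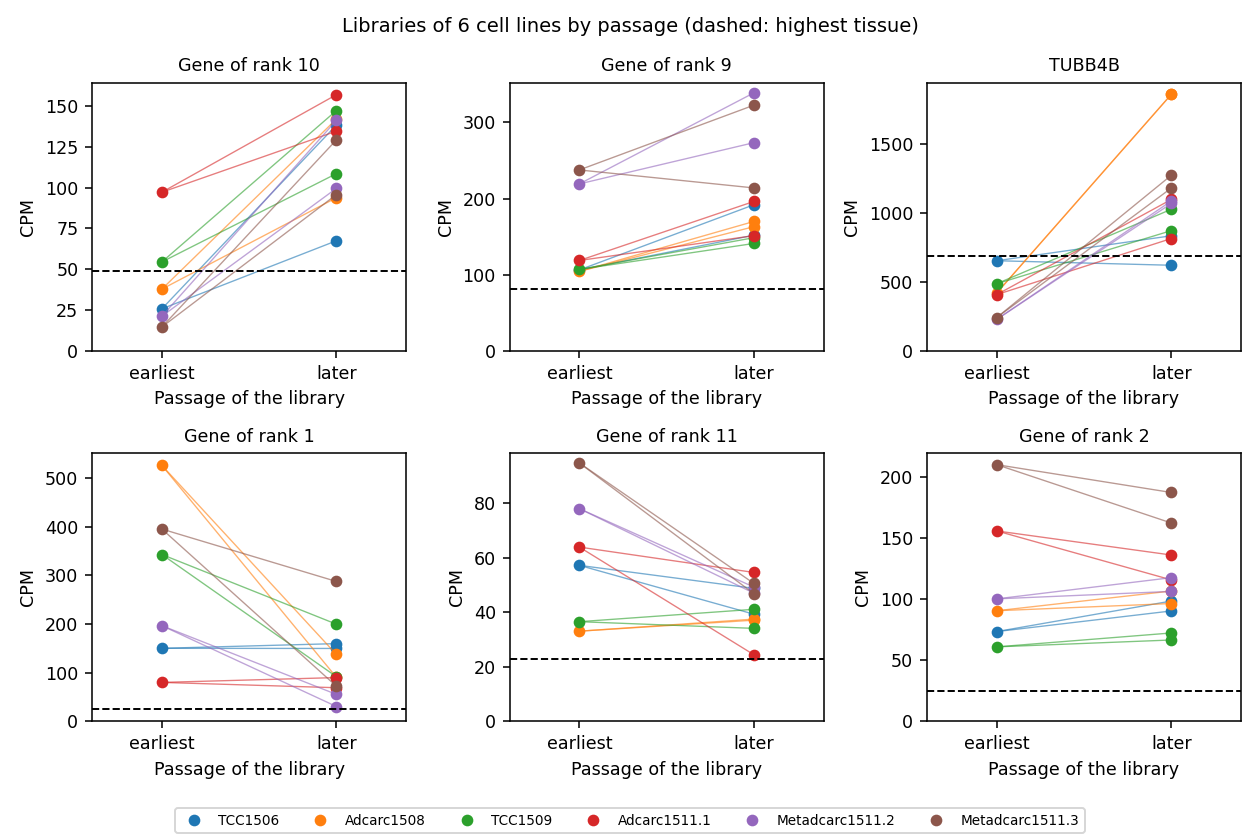
CPM of the libraries of 6 cell lines (colors) at the earliest and at the 2 later passages for 5 of the 12 genes and TUBB4B, with lines joining the libraries of a cell line and a dashed line at the highest tissue. The gene in place 10 and TUBB4B lie mostly or wholly under the dashed line at the earliest passage, while the other 4 genes lie above it in every library.

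For 8 of the 12 genes, the lowest of all 22 libraries of the lines was still above the highest tissue. The exceptions were the genes in places 5, 6, 7 and 10, each through 1 or more low libraries. The gene in place 5 had 8.45 CPM in the earliest library of TCC1506, against 22.3 CPM in its highest tissue. The genes in places 6 and 7 had 16.3 and 15.5 CPM in replicate 3 of Adcarc1511.1, against 32.5 and 21.8 CPM. At the margin of 1.5 in every library, 2 genes remained, ENSCAFG00000015235 (lowest library 2.09 times the highest tissue) and the gene in place 4 (1.77). Applied to the earliest libraries of the 6 lines, the rule found 15 genes, 5 of them among the 12. Applied to the later libraries of the same lines, it found 23, with 11 of the 12. The sums that chose the 12 hold 1 earliest and 2 later libraries of each of these lines. A larger overlap with the later libraries is therefore in part fixed. The earliest value of a line also rests on 1 library and the later value on 2, so these counts are a description.

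Of the 123 genes higher in every line than in every tissue but under the margin, 9 could be named. They are given as the nearest genes with known function. Several act in mitosis and in RNA maturation, but all 9 were listed by the study for their correlation with drug resistance in these lines, so their functions are no independent evidence of a theme. The nearest was SAMD4A, an RNA-binding protein of the Smaug family that acts in translational repression, with 19.4 CPM in its lowest line and 14.9 CPM in its highest tissue, a ratio of 1.3. Its 3 lines from dog 4 had 52.8, 57.6 and 58.6 CPM, and the other 5 lines 19.4 to 23.0 CPM. This split did not hold in every library, as SAMD4A had 21.4 CPM in replicate 3 of Adcarc1511.1. TRAPPC6B, a subunit of the TRAPP complex of vesicle transport, was split in the same way in the pooled values. It had 20.9 to 28.6 CPM in the lines of dog 4 and 8.55 to 13 CPM in the others. Its ratio was 1.002. The metastases of that dog did not stand apart for TRAPPC6B, with 4.49 and 4.51 CPM in Ln4.2 and Ln4.3 against a median of 4.51 CPM over all tissues.

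Of the genes for cell division, KIF24, a kinesin of the centriole that controls cilium formation, had 10.0 CPM in its lowest line and 8.46 CPM in B7 (ratio 1.18). In replicate 3 of Adcarc1511.1 it had 3.33 CPM. HAUS2, a subunit of the augmin complex that builds microtubules within the spindle, had 51.6 CPM against 44.6 CPM in B9 (1.16). TUBB4B, a β-tubulin, had 709 CPM in TCC1506 against 688 CPM in B7 (1.03). The medians of the lines were 2.47, 2.63 and 2.06 times those of the tissues.

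Of the genes for RNA maturation, SYMPK encodes symplekin, a scaffold of the machinery that cleaves and polyadenylates mRNA precursors. Its lines were close together, with 154 to 195 CPM, and its highest tissue was B10 with 135 CPM (ratio 1.14). NOP56, a core protein of the small nucleolar particles that guide rRNA methylation, had 257 CPM in TCC1506 against 249 CPM in B7 (1.03), and 786 CPM in TCC0840. UCP3, a carrier of the inner mitochondrial membrane, had 22.3 CPM against 21.0 CPM in B9 (1.06), but 10.0 CPM in replicate 3 of Adcarc1511.1. ENTR1, which acts in endosomal transport, had 31.3 CPM against 31.0 CPM in B7 (1.007).

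**Figure D5:**
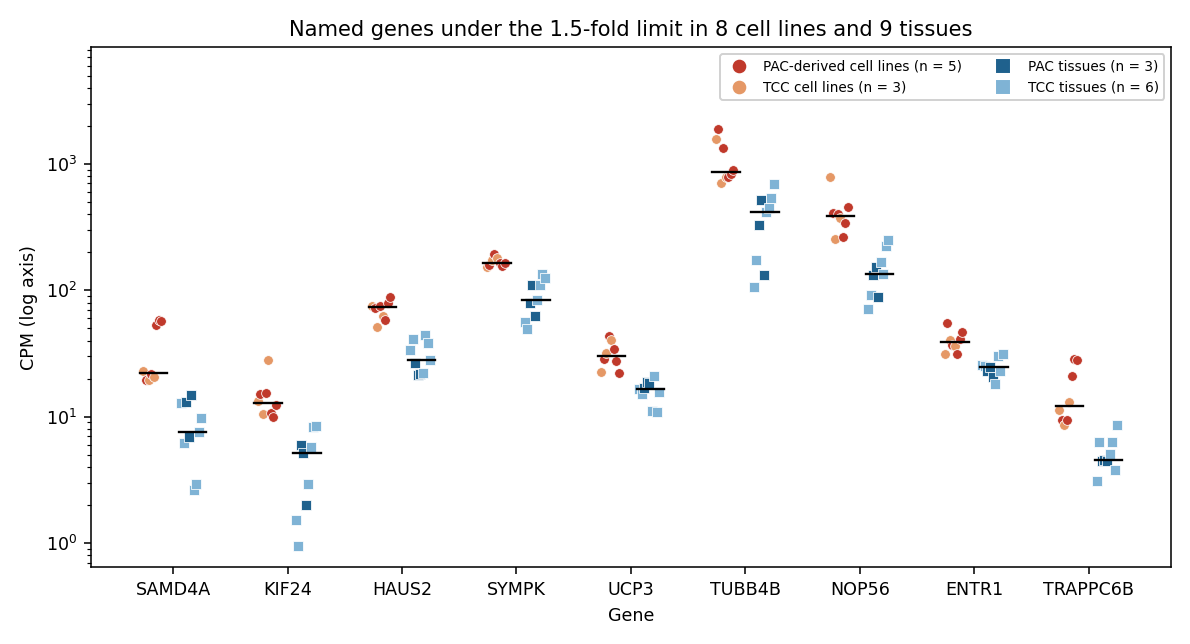
CPM (vertical, log axis) of the 9 named genes that were higher in every line than in every tissue by less than 1.5-fold, 1 point per pooled line (circles) or tissue (squares), with black bars at the medians. The lowest circle lies 1.002 to 1.3 times above the highest square, and for SAMD4A and TRAPPC6B the 3 lines of dog 4 lie above the other 5.

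None of these 9 passed the test between PAC-derived and TCC lines or between TCC and PAC tissues (edgeR adjusted p of 0.594 or more and 0.271 or more). By passage, TUBB4B rose by 1.45 on the log2 scale (SE 0.23, edgeR adjusted p = 0.000713), in 6 of 6 lines. None of its earliest libraries, with 229 to 654 CPM, exceeded the highest tissue, and all 6 pooled later values, from 735 CPM, did. Of the 9 genes, only SAMD4A and HAUS2 exceeded their highest tissue in all 6 earliest libraries. NOP56 rose by 0.37 (SE 0.13, edgeR adjusted p = 0.0486), in 6 of 6 lines. It lost the call without any of Adcarc1508, Adcarc1511.1, Metadcarc1511.2, Metadcarc1511.3 or TCC1506, and without replicate 2 of all lines (edgeR adjusted p = 0.274). KIF24 had a log2 difference of 0.76 (SE 0.34, edgeR adjusted p = 0.103) and passed with DESeq2 (adjusted p = 0.0408, range over alternatives 0.00485 to 0.417). For the other 6 the adjusted p was 0.237 or more. In all, 50 of the 123 genes changed with passage, against 26.1% of the 8237 genes with at least 5 CPM in every line.

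Gene lists of 10 functions were set beside the 12 genes, since the identity of the latter is unknown. No list could hold one of them, since the lists are made of symbols and none of the 12 genes has one. The lists were drawn from the drug-resistance tables of the study and so are not independent of these lines. Among genes with at least 5 CPM in every line, the median over the lines was 2-fold or more that over the tissues for 12.7%. In the list for mitosis and cell cycle this held for 10 of 19 genes, and for none in the opposite direction, with a median ratio of 2.06. CKAP5, which promotes microtubule growth at the spindle, had medians of 212 and 118 CPM in lines and tissues, and its highest tissue (177 CPM) exceeded its lowest line (138 CPM). In the list for centrosome and spindle it held for 8 of 33, with CEP76, which limits centriole duplication, at 26.7 against 10.5 CPM.

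In the lists for RNA, it held for 1 of 35 genes of pre-mRNA processing and for 3 of 18 of rRNA and tRNA processing, among them WDR4, a subunit of a tRNA methyltransferase, with medians of 49.1 and 15.1 CPM. It held for 1 of 7 genes of translation, EIF4A1, the helicase of the cap-binding complex, with 1418 and 602 CPM. In metabolism it held for 4 of 27 mitochondrial proteins, including PDHA1, a subunit of pyruvate dehydrogenase, at 408 and 155 CPM, for 3 of 14 genes of lipid and sterol synthesis and for 2 of 10 of nucleotide and amino acid metabolism. It held for 1 of 17 genes of the endoplasmic reticulum and N-glycosylation, ERO1A, an oxidase of disulfide bond formation, at 342 and 113 CPM, and for 0 of 28 of transcription and chromatin. Of the 206 listed genes with at least 5 CPM in every line, 5 were higher in every line than in every tissue, KIF24, HAUS2, TUBB4B, SYMPK and NOP56, against 1.64% of all genes at that level.

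The scale of the counts shifted these contrasts. With total counts, the median log2 difference of lines over tissues for all 8237 genes was 0.27, with TMM 0.43, with DESeq2 size factors 0.17 and with TPM 0.30. Relative to that median, the 12 genes lay higher by 1.62 to 1.65 under each of these scalings, and all 12 stayed higher in every line than in every tissue. A scaling factor of a sample acts on the 12 genes and on all genes alike, so the near-constant gap is largely fixed. The margin of the rule also favored that the 12 genes stay apart. Both results are therefore a description and no test of how robust the 12 genes are. With TMM, 1528 of all 8237 genes were at 2-fold or more. The count rose to 7 of 14 for lipid and sterol synthesis, 8 of 27 for mitochondrial proteins, 6 of 18 for rRNA and tRNA processing, 3 of 35 for pre-mRNA processing and 2 of 28 for transcription and chromatin, and to 12 of 19 and 11 of 33 for mitosis and for centrosome and spindle. With TPM it was 6 of 14 for lipid and sterol synthesis and 2 each for pre-mRNA processing and for transcription and chromatin.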

How the data were processed

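RNA of 8 canine carcinoma cell lines and 9 tumor tissues was sequenced in 31 libraries, on 4 lanes each. According to the methods of the study and the submitters' processing notes, reads were trimmed by the authors (Trimmomatic 0.36), mapped to CanFam 3.1 (STAR 2.5.3) and assigned to Ensembl genes (RSEM 1.3.0). The authors deposited expected counts per gene and lane without normalization, and 17.4% of the values above 0 are not whole. They also deposited TPM, scaled by RSEM to transcript length and to the total of each lane, and FPKM, which were not used here. Trimming, multi-mapped reads shared out by RSEM and missing symbols can change single genes.

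Expected counts were summed over lanes and libraries, divided by the total and scaled to CPM, and rounded for the tests. The 3 lanes of Adcarc0846 whose labels count upward were assigned by title. The tests were edgeR 4.0.16 quasi-likelihood tests (TMM, at least 10 counts in all samples of a group, Benjamini-Hochberg adjustment over all genes tested, adjusted p of 0.05 or less) in R 4.3.3, tested on simulated data. They compared PAC-derived with TCC lines, TCC with PAC tissues (without Ln6.2), and earliest with later libraries of 6 lines (line as covariate). Standard errors were calculated as the absolute log2 fold change over the square root of F. Alternatives were DESeq2 1.42.0, other scalings, filters, thresholds and poolings, and samples left out. Python 3.11.15, pandas 2.3.3 and matplotlib 3.10.9 were used.

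The 12 genes, the lists and the tests were chosen with earlier results of these data known. Genes were named if a published list or table of the study gave their symbol, with at most 3 for each list of functions, those closest to the rule. Identifiers are printed for the 2 widest gaps and for the 2 largest rises and both falls with passage. A reference table of gene symbols matched none of the identifiers. Each tissue has 1 library and so no replicate of its own, libraries of a line are not independent samples, and p-values measure the spread between the samples named. Pairs of line and tissue follow the labels.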

Additional observations from a re-analysis of the deposited data

Results flagged for a closer look

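Among the 5 PAC-derived lines, 1 line stood far from the others for 2 of the 21 genes described. ENSCAFG00000015485, in place 10, had 130.0 CPM in Adcarc1511.1, while the other 4 lines had 79.3 to 91.0 CPM. In the libraries of this line the gene had 97.2, 135 and 157 CPM, so its earliest library was also the highest of the 6 earliest ones. SYMPK, the scaffold of mRNA end processing, had 195 CPM in Adcarc1508, while the other 4 had 156 to 164 CPM. In all, 42 groups of 5 samples were examined, and chance alone flags about 1 in 20.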

How the results depend on the processing

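Of the 12 genes, all met the rule again with TMM-scaled CPM, which found 24 genes, and 10 did with DESeq2 size factors and with TPM. The rule found 3 genes at a ratio of 2, and 2 with the lowest single library in place of the lowest line. Restricted to the 6 lines with 3 libraries, a choice made after seeing the data, it found 21 genes with all libraries. It found 15 with the earliest libraries, 1 per line, and 23 with the later ones, 2 per line. Leaving out 1 line, tissue or library gave 9 to 55 genes. The 55 came without B7, and without any other tissue the rule found 12 to 14, so B7 sets the size of the group.

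Between PAC-derived and TCC lines, none of the 12 genes was called by edgeR (1 had an unadjusted p under 0.05) or DESeq2, whereas over all genes DESeq2 called 195 in place of 3. No gene was called without the count filter, at an adjusted p of 0.01 and 2-fold, or with the 3 lines of 1 dog summed (0 in each), and leaving out 1 line gave 0 to 36 calls. With 22 libraries as separate samples, 1 of the 12 (ENSCAFG00000015235) and 1520 genes were called, and with the replicate block, the pairing by replicate number, 1 and 1446. To look at the number, the log2 level of each gene in a library was taken as its deviation from the mean of its line. Between different lines, these deviations correlated with a median of 0.22 to 0.347 for the same number, against -0.151 for different numbers. Deviations within a line sum to 0, so positive values for the same number push the others below 0, and the -0.151 is no separate result. Of 18 libraries, 17 correlated best with their own number, a hint from the data that the libraries of a number share something beyond the line. The labels name no shared batch or day, and some pairs of numbers 2 and 3 were under 0.1 (lowest -0.124), so the number was not used as a pairing elsewhere. Libraries of 1 line are not independent, so these calls are not evidence about tumor types. SAMD4A was also called in both of these fits, and TRAPPC6B without the block.

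Between TCC and PAC tissues, 0 of the 12 were called under every alternative. The calls over all genes were 781, and 2344 with DESeq2, 470 with the tissues of 1 dog summed, 0 with Ln6.2 added, 0 at the stricter threshold, and 123 to 1095 with 1 tissue left out (lowest without B8). Between earliest and later libraries, the stricter threshold left 1 of the 12 and 291 genes, and leaving out a line or replicate gave 1 to 5 of the 12 and 623 to 3246 genes, lowest without replicate 2. Without Metadcarc1511.2, 2 of the 12 were called. ENSCAFG00000015485 and TUBB4B kept their call in all 12 alternatives. No call reversed. The causes were not tested. The tissues, with fewer counts and 1 library each, limit the precision of every fold.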
